A study of Mus musculus with 20 samples.

Results

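Mouse T-cell acute lymphoblastic leukemias in which Acly can be deleted with tamoxifen were studied at the end of the disease, after deletion at its start. Acly encodes ATP-citrate lyase, which splits citrate in the cytosol into acetyl-CoA and oxaloacetate. All recipient mice had been irradiated at a sub-lethal dose and had received the leukemic cells into a vein. At 48 h after transplantation, the control mice were given the corn oil vehicle and the knockout mice were given tamoxifen in corn oil, 3 mg per mouse, by intraperitoneal injection. Spleens were taken when each mouse reached its humane endpoint, and every library of this survival arm was used: 5 controls and 5 knockouts, 10 of the 20 libraries in the series. The other 10 libraries, 6 controls and 4 knockouts, came from an acute arm in which overtly leukemic mice were treated and spleens were taken 72 h later. They were used only to ask whether an endpoint difference was also seen soon after deletion.

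Both endpoint groups carried the same kind of conditional leukemia, so the control is the undeleted leukemia in a corn oil treated mouse. Tamoxifen and deletion cannot be told apart in these groups. The labels do not name the Cre driver, the exons removed or the number of independent leukemias, nor do they tie each library to a mouse of its own. The p-values therefore measure the spread between libraries. Spleens were dispersed and red cells lysed, and no sort is named, so each library holds RNA of leukemic cells together with that of the host spleen.

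ATP-citrate lyase is the main route by which carbon from glucose and glutamine leaves the mitochondrion for lipid synthesis, and its acetyl-CoA also feeds the acetylation of histones. The synthetase Acss2 offers a second route, from acetate. Mouse T-cell leukemia depends on NOTCH1 signaling in many models, and its cells keep the T-cell receptor rearrangement of the thymocyte from which they grew, so the receptor segments in the RNA can tell clones apart.

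Levels are given as the deposited normalized counts, which are read numbers that the authors scaled between libraries. Totals of these values ranged from 19998354 to 21623571 per library. The survival table listed 26486 genes, and the 16136 that reached a value of 10 in at least 5 libraries were tested. Fold changes are differences of log2(value + 1), knockout minus control, which understates the change of low genes. The threshold for a call was an adjusted p under 0.05 in limma, a linear model fitted gene by gene with shared estimates of spread, with Benjamini-Hochberg adjustment over all genes tested. The libraries were alike across genes, with Spearman correlations of 0.978 to 0.989 between pairs of libraries, and the median fold change of all genes was 0.0087. T-lineage markers were abundant in each library, with a summed level of 323800 to 366300 in controls and 350200 to 376000 in knockouts.

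Few genes separated the groups at the endpoint. limma called 2 of 16136 genes, 0.0124% of those tested: Acly was lower and Ccnd1, the gene of the G1 regulator cyclin D1, was higher in knockouts. At an unadjusted p under 0.05 there were 1411 genes, or 8.74%, of which 827 (5.13%) were higher and 584 (3.62%) lower. A fold change of at least 2 in either direction was seen for 243 genes. Fold changes were positive for 8482 of the 16136 genes. The number called was 22 without control 4, 4 without knockout 2 and 1 without any of controls 1, 2, 3 and 5 or knockouts 1 and 5, and Acly was called in each of these.

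**Figure D1:**
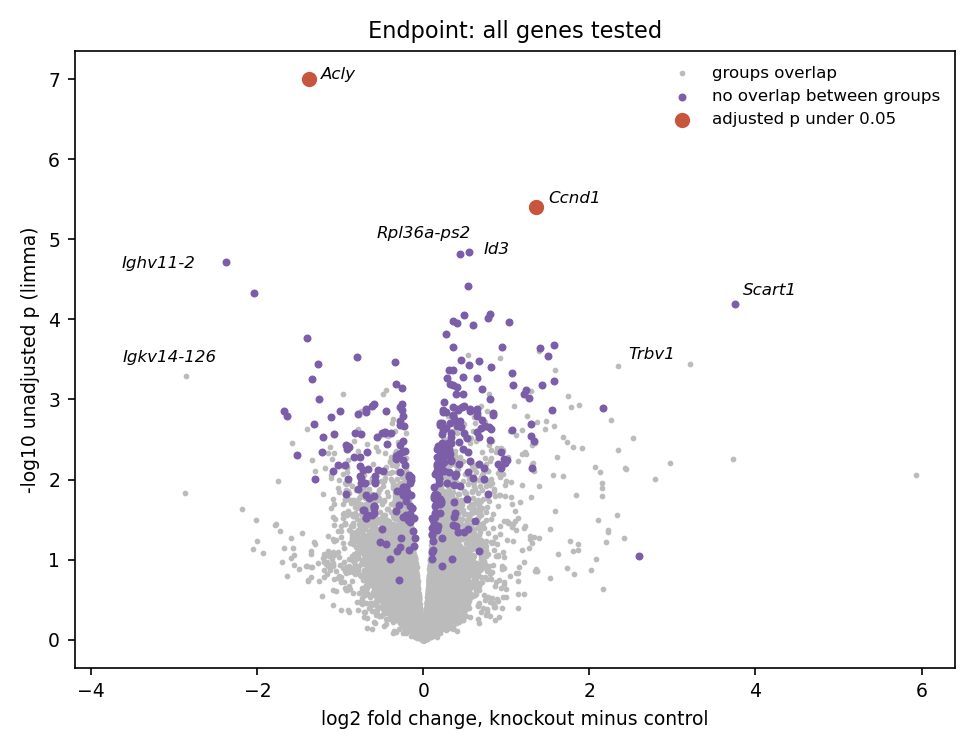
Each point is a tested gene, with the log2 fold change (knockout minus control) across and minus log10 of the unadjusted limma p upward. The 2 red points, Acly and Ccnd1, are the genes with an adjusted p under 0.05, and the 324 purple points are genes whose 5 knockout values all lie on one side of the 5 control values.

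Acly RNA was measured in every knockout library, at 27.6 to 50.9% of the control mean. The gene lies on chromosome 11 (GENCODE M21, GRCm38). The controls held 7922, 7758, 7396, 7544 and 8825 normalized counts. The knockouts held 4017, 2174, 3523, 3025 and 2718, in the order of their replicate numbers, or 50.9, 27.6, 44.7, 38.3 and 34.4% of the control mean. Every knockout lay below every control, with knockout 1 the highest and knockout 2 the lowest of the knockouts. The mean fell from 7889 ± 561 (SD, n = 5) to 3091 ± 712 (n = 5), a log2 fold change of -1.38 (SE 0.131, limma adjusted p = 0.0016). An exact two-sided permutation test gave p = 0.00794, the smallest value that 252 arrangements of 5 against 5 libraries allow. Transcripts that have lost the deleted exons may still be counted, and host cells of the spleen may add Acly RNA. Leukemic cells that escaped deletion, transcript left in deleted cells and host RNA therefore cannot be told apart. The mean log2 level of neutrophil markers was 9.41, 6.33, 8.81, 7.13 and 6.15 in knockouts 1 to 5. In controls 1 to 5 it was 8.62, 8.78, 8.73, 6.97 and 8.65. Other host markers ordered the libraries differently. The summed level of monocyte and macrophage markers was 8056.5, 9632, 8043.2, 7123 and 7300.8 in knockouts 1 to 5. In controls 1 to 5 it was 6419, 6480.3, 7691.1, 6621.5 and 6806.2. Whether residual Acly follows the host share was not tested.

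The Acly fold change was larger at the endpoint than in the acute arm. Acute knockouts held 4823 to 6402 normalized counts and acute controls 7406 to 8280, in a table scaled on its own. The endpoint fold change minus the acute one was -0.92 (SE 0.164, limma adjusted p = 0.000442). Control levels of the 2 tables overlapped, whereas no endpoint knockout reached the lowest acute knockout.

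Ccnd1, on chromosome 7, was the other gene called. The controls held 297, 273, 273, 333 and 250 normalized counts, and the knockouts 868, 1088, 561, 505 and 762. All 5 knockouts lay above all 5 controls, with knockouts 1 and 2 the highest. The log2 fold change was 1.35 (SE 0.179, limma adjusted p = 0.0323), from 285 ± 31.4 to 757 ± 236. Cyclin D1 drives entry into the cell cycle with CDK4 and CDK6, and thymocytes and T-cell leukemias are better known for cyclin D3. The call was lost when any of 6 libraries was left out: controls 1, 2, 3 and 5 (adjusted p = 0.117, 0.128, 0.148 and 0.0847) and knockouts 1 and 5 (0.0686 and 0.0819). In the acute arm the Ccnd1 fold change was 0.48 (adjusted p = 0.0144), and the endpoint minus acute difference was 0.88 (SE 0.236, adjusted p = 0.0119). With libraries scaled to Trbc1 and Trbc2, the constant segments of the receptor beta chain, that difference was 0.42 (adjusted p = 0.217). The endpoint call of Ccnd1 was lost under this scaling too (1.27, adjusted p = 0.0535). It was also lost in a limma fit whose spread estimates did not follow the gene's level (adjusted p = 0.145). The Ccnd1 transcripts share 22.3% of their 31-base words with LTO1, with words on either strand counted. Over this share, reads of the 2 genes could be told apart only by strand, if at all.

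**Figure D2:**
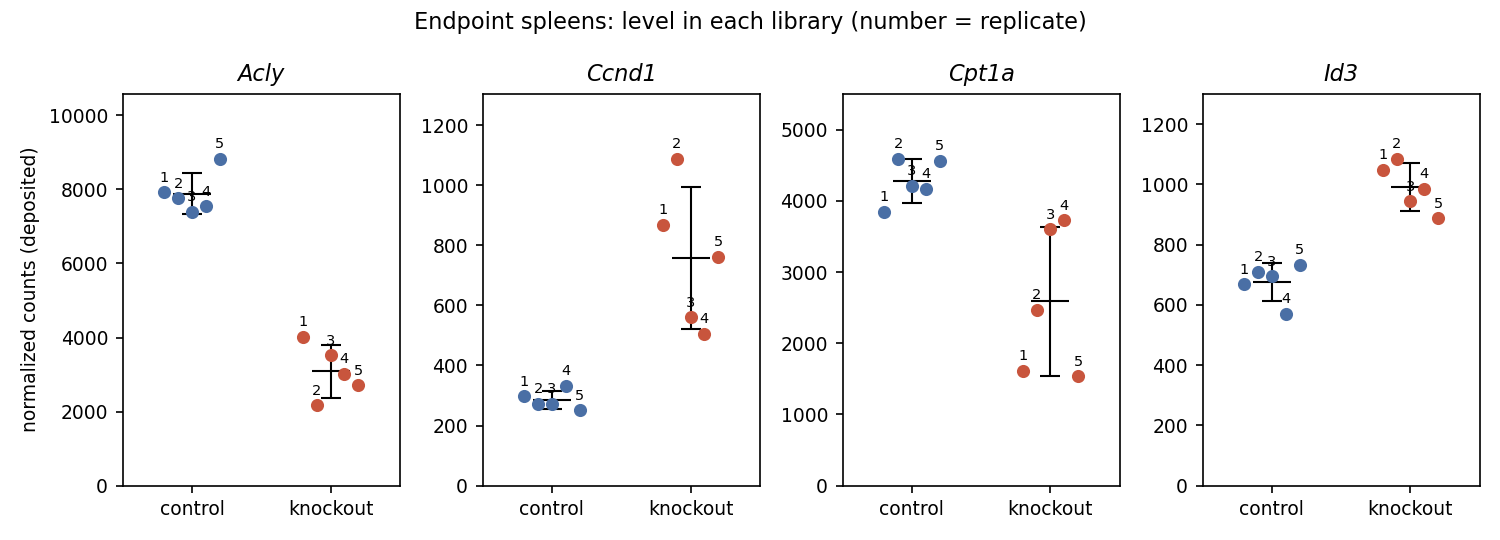
Normalized counts (vertical axis, starting at 0) of Acly, Ccnd1, Cpt1a and Id3 in the 5 control and 5 knockout endpoint libraries, with the replicate number beside each point and bars for the mean and SD. In each of the 4 genes the knockout points do not overlap with the control points, and knockouts 1, 2 and 5 hold the lowest Cpt1a values.

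Complete separation of the 5 knockout from the 5 control values was seen for 324 genes, or 2.01%. Of these, 196 genes (1.21%) were higher and 128 (0.793%) lower in all 5 knockouts, and Acly and Ccnd1 were the only ones that passed the limma threshold. Scaling moved this split, to 159 higher and 175 lower with upper quartile scaling and to 57 higher and 300 lower when scaled to Trbc1 and Trbc2. Leaving a library out raised the number, to 578 without control 4, 535 without control 1 and 511, 520 and 553 without knockouts 1, 4 and 5. Most of these separations were small: the median log2 fold change was 0.36 among the higher and -0.49 among the lower genes, and 22 higher and 19 lower genes reached 2-fold. For 3 of the higher and 7 of the lower genes a value of 10 was reached in 1 group only, and these passed the filter through the group in which they were high. The genes named next are the 12 in each direction with a mean of at least 50 and the widest gap between the groups.

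Ccnd1 and Scart1, a scavenger receptor gene best known from gamma-delta T cells, had the widest gaps among the higher genes. Scart1 was at 20.7, 12.6, 1.95, 44.6 and 4.72 in controls and at 320.1, 245, 108, 172 and 66.6 in knockouts, a log2 fold change of 3.75 (SE 0.649) that did not pass (adjusted p = 0.128). Knockouts 1 and 2 were highest, and control 4 was the highest control. Id3, an inhibitor of E-protein transcription factors that responds to T-cell receptor signals, went from 676 ± 63.5 to 990 ± 79.5 (0.55, SE 0.0822, adjusted p = 0.0617). Its controls held 669, 710, 696, 570 and 734, and its knockouts 1049, 1085, 943, 986 and 887. The knockouts lay close together, all above the controls.

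Lgalsl, a galectin-like gene (1.41, SE 0.279), Nebl, which encodes nebulette (1.28, SE 0.301), and Rps6ka2, which encodes a ribosomal S6 kinase of the MAPK pathway (1.34, SE 0.373), had their highest values in knockouts 1 and 2. Rps6ka2 was at 171 and 240 there, at 58.1 to 66.3 in the other knockouts and at 25.5 to 45.6 in controls. The export pump gene Abcc3 was even across knockouts, at 115 to 142 against 61.8 to 88.9 in controls (0.80, SE 0.143, adjusted p = 0.128). Esm1, which encodes endocan, was at 125 to 246 against 72.9 to 105 (0.95, SE 0.187). The leucine zipper gene Lzts1 (0.67, SE 0.139) and the synaptic scaffold gene Rims1 (0.82, SE 0.173) completed the named protein-coding genes. The remaining 2 were processed pseudogenes: Rpl36a-ps2 (0.44, SE 0.0662, adjusted p = 0.0617) and Gm14494 (0.69, SE 0.182). All 31-base words of the Rpl36a-ps2 transcript, 100%, also occur in Rpl36a, and 84.7% of those of Gm14494 in Tomm20, in GENCODE M21 transcripts, so reads of the parent genes could have been assigned to them. Besides Ccnd1, limma called acute rises of Rps6ka2 (2.61, adjusted p = 0.000259), Scart1 (2.24, adjusted p = 0.0276) and Abcc3 (0.66, adjusted p = 0.0493). For Rps6ka2, Scart1 and Abcc3 no endpoint minus acute difference was called. Lzts1 was lower in acute knockouts (-0.64, adjusted p = 0.0171).

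Among the genes lower in all knockouts, Ighv11-2, an antibody heavy chain segment, had the widest gap after Acly. Together with Cd79b it is described with the B-cell genes. Ggt7, of the gamma-glutamyltransferase family, was at 150 to 177 in controls and 94.4 to 131 in knockouts (-0.46, SE 0.123). Ndufs4, a subunit of respiratory complex I, was at 866 to 1025 and 661 to 811 (-0.33, SE 0.074, adjusted p = 0.219). Prkra, an activator of the RNA-dependent kinase PKR, was at 227 to 274 and 149 to 209 (-0.45, SE 0.11). Il5ra, the interleukin-5 receptor alpha chain, was at 309 to 498 and 185 to 288 (-0.49, SE 0.156). Fold changes of the chromatin remodeler subunit gene Bcl7c (-0.29), the small GTPase gene Rab28 (-0.29), Caml, which acts in membrane insertion of proteins (-0.20), the non-coding 4930516B21Rik (-0.56) and Cntf (-0.54) were smaller than 1 in size, and 0 of these passed the threshold. The Cntf transcript shares 78.4% of its 31-base words with Zfp91, so over most of its length reads of both genes could be told apart only by strand, if at all.

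**Figure D3:**
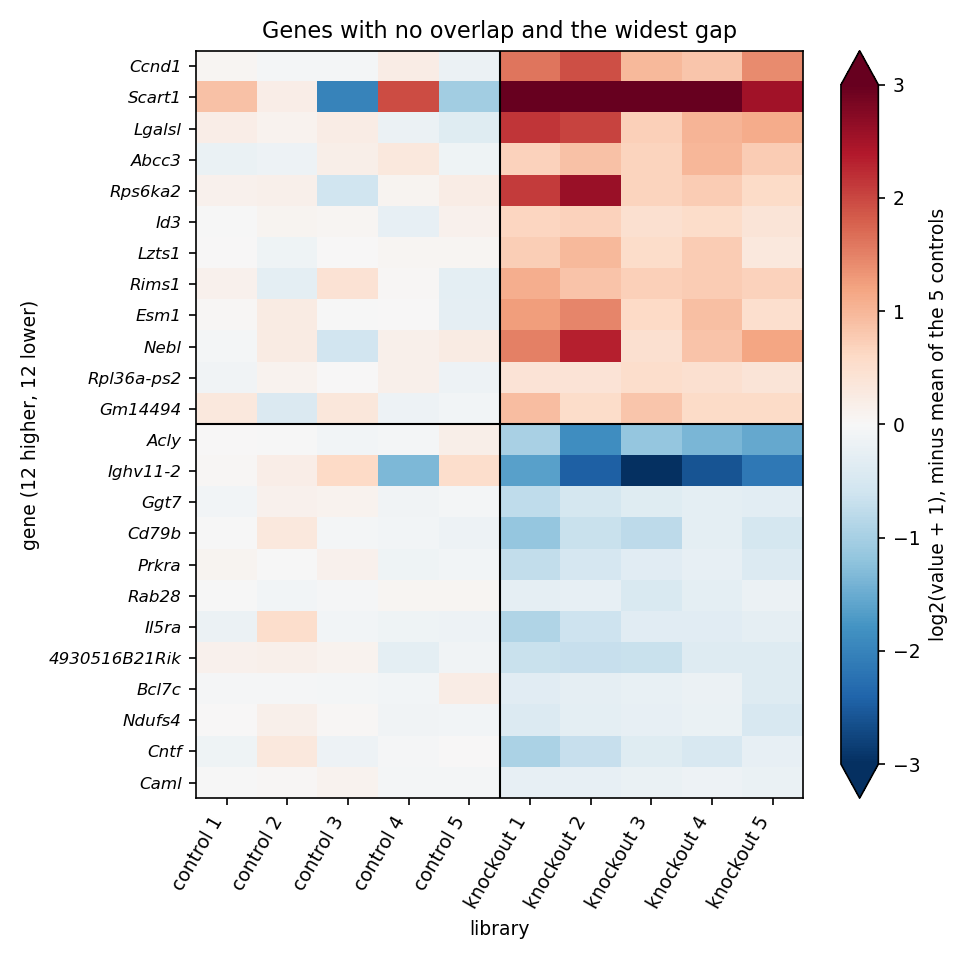
Colour gives log2(value + 1) minus the mean of the 5 controls, for the 12 higher (top) and 12 lower (bottom) genes with the widest gap, in the 5 control (left) and 5 knockout (right) libraries; values beyond 3 share the end colour. Scart1, Lgalsl, Rps6ka2 and Nebl are deepest in knockouts 1 and 2, while Id3, Abcc3 and Rpl36a-ps2 are even across the 5 knockouts.

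The T-cell receptor beta segments differed between libraries within each group as well as between groups. Trbv26 and Trbv2 led in controls, and Trbv1 made up a larger part in most knockouts. The last 200 coding bases of Trbv26, which led in all controls, and of Trbv1 are shown because their balance set libraries of the same group apart. Both lie on the plus strand of chromosome 6 and were read from GENCODE M21 transcripts (GRCm38). The capitals mark the end of the segment, from the codon of the conserved cysteine at which the CDR3 of the receptor begins.
Trbv26: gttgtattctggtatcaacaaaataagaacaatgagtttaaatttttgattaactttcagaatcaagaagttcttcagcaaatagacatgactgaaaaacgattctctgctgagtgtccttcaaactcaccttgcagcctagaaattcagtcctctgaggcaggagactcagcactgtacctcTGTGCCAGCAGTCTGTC
Trbv1: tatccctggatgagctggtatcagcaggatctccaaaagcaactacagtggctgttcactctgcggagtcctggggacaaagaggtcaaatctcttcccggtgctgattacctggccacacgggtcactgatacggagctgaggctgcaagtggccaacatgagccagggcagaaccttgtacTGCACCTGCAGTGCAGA

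Trbv1 shares 0% of its 31-base words with any other gene of that annotation, and the same holds for Trbv26 and Trbv2. Trbv1 took 3.05, 4.09, 3.36, 15.2 and 3.41% of the summed Trbv level in controls and 39.6, 42.0, 8.93, 15 and 16.1% in knockouts. Control 4 stood apart from the other controls and lay among the knockouts, while knockouts 1 and 2 were the highest. In the acute arm the Trbv1 share was 2.73 to 4.09% in all 10 libraries, knockouts included. Trbv26 took 65.3, 65.2, 66.3, 54.0 and 65.1% in controls and 41.2, 31.9, 59.8, 57.2 and 51.7% in knockouts. The summed level of the 25 Trbv segments was 8185 to 9903 in controls and 10017 to 11668 in knockouts, and these sums did not overlap between the groups.

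As a single gene, Trbv1 was at 302, 388, 315, 1367 and 279 normalized counts in controls and 4135, 4899, 931, 1500 and 1676 in knockouts. Its log2 fold change was 2.34 (SE 0.492) and did not pass (adjusted p = 0.185), and control 4 lay above knockout 3. The endpoint minus acute difference did pass, at 2.70 (SE 0.588, adjusted p = 0.00271). Without control 4, the limma call of Trbv1 was made (2.76, SE 0.404, adjusted p = 0.0235), and 22 genes were called in place of 2.

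Some receptor segments were high in 1 knockout alone. Trav16n was at 150 in knockout 1 and at 0 to 13.6 in the other 9 libraries. Trav6d-7 and Trav6n-7, whose values were identical, were at 85.4 in knockout 2 and at 3.54 to 12.5 elsewhere. The gamma segment Trgv2 was at 1530 and 1545 in knockouts 1 and 2 and at 708 to 1165 in the other 8 libraries. The 2 libraries with the largest Trbv1 share thus shared a high Trgv2 level and differed in their alpha segments.

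The genes with the largest positive endpoint minus acute differences, Trbv1 among them, were high in the same knockouts. Dsg2 and Dsc2 encode desmosomal cadherins, adhesion proteins of epithelia. Dsg2 was at 166, 198, 198, 460 and 183 in controls and 742, 878, 370, 482 and 589 in knockouts, and Dsc2 at 161, 185, 132, 477 and 94.1 against 843, 1101, 284, 509 and 569. In both, control 4 was the highest control and knockouts 1 and 2 the highest knockouts, as for Trbv1. Neither was called at the endpoint (Dsg2 1.39, adjusted p = 0.181, and Dsc2 1.75, adjusted p = 0.238). The difference from the acute arm was called for each (2.09, adjusted p = 0.000575, and 2.89, adjusted p = 0.00165). Each difference includes a called acute fall, of -0.70 for Dsg2 (adjusted p = 0.0278) and -1.15 for Dsc2 (adjusted p = 0.0295). Cpsf4l, related to a polyadenylation factor gene, was at 119 to 141 in the controls other than control 4, at 320 in control 4 and at 218 to 842 in knockouts. The collagen gene Col1a2 was at 102 to 446 in controls and 302 to 1539 in knockouts (1.88, SE 0.454, adjusted p = 0.241). Snhg17, a small nucleolar RNA host gene, was at 33.1 to 184 and 118 to 296, and there control 4 was the lowest of all libraries.

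**Figure D4:**
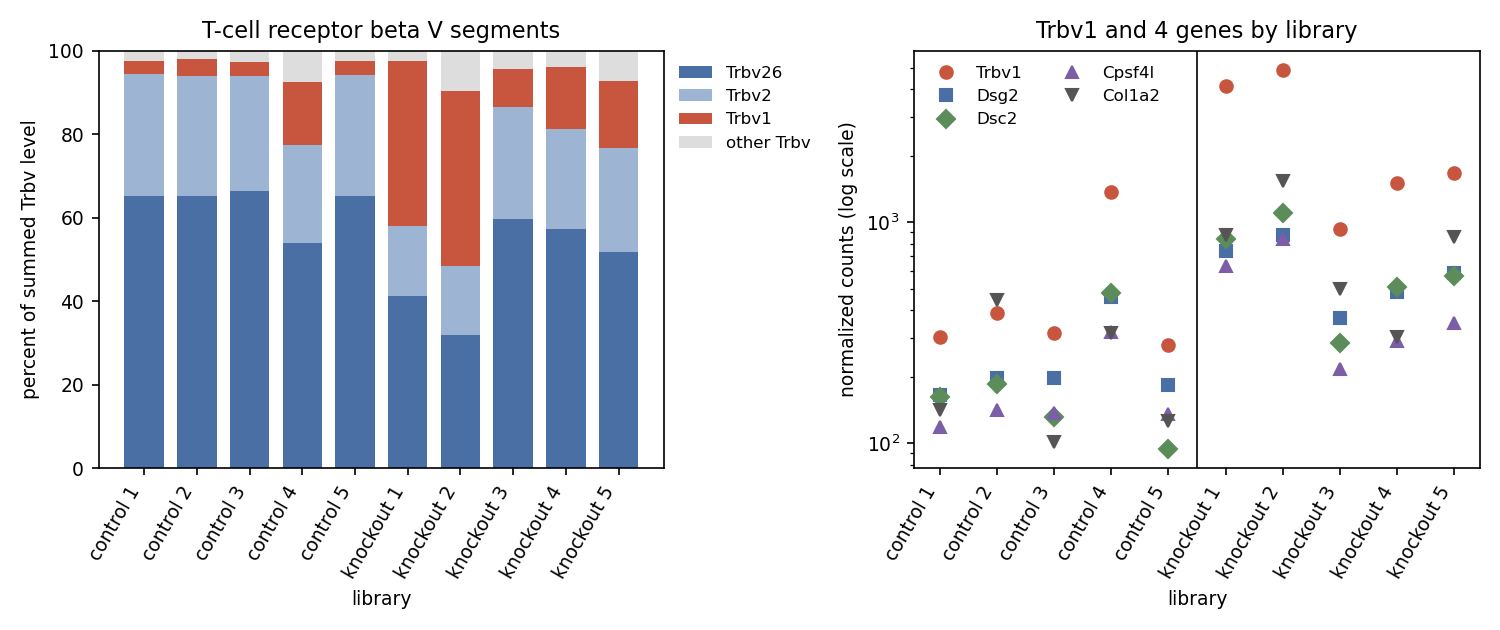
Left, the percent of the summed Trbv level held by Trbv26, Trbv2, Trbv1 and all other Trbv segments in each endpoint library. Right, normalized counts (log axis) of Trbv1, Dsg2, Dsc2, Cpsf4l and Col1a2 in the same libraries, with a line between controls and knockouts; control 4 (Trbv1 share 15.2%) and knockouts 1 and 2 (39.6 and 42.0%) stand out in the left panel.

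The Trbv1 share moved with the groups, so both calls were recomputed without the libraries that stood apart. Knockouts 1 and 2, with the highest shares, held the highest and the lowest Acly level among knockouts. In knockouts 3, 4 and 5 the shares were 8.93, 15 and 16.1%, and Acly was at 44.7, 38.3 and 34.4% of the control mean. Whether residual Acly follows the share was not tested. Without control 4 and knockouts 1 and 2, the Acly fold change was -1.37 (adjusted p = 0.000447) and that of Ccnd1 was 1.13 (adjusted p = 0.0161). Without knockouts 1 and 2 alone, Ccnd1 was 1.08 (adjusted p = 0.0515). With the Trbv1 share as a covariate, limma called 0 genes: Acly was -1.25 (SE 0.211, adjusted p = 0.522) and Ccnd1 0.79 (adjusted p = 0.956). Share and group cannot be told apart in that model, because 4 of 5 controls have the lowest shares.

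Apart from Acly, no gene of lipid metabolism or acetyl-CoA supply was called. Cytosolic acetyl-CoA and citrate supply had 21 genes tested, with Acly the only one called and a list median of 0.043. Acss2, the acetate-using synthetase of cytosol and nucleus, was at 549, 676, 516, 567 and 592 in controls and 423, 459, 609, 603 and 540 in knockouts, and the groups overlapped (-0.15, SE 0.112, adjusted p = 0.735). Its mitochondrial relative Acss1 was at 862 ± 179 and 1075 ± 110 (0.34, SE 0.127, adjusted p = 0.44) and Pdha1 of pyruvate dehydrogenase at 5320 ± 108 and 5755 ± 303 (0.11).

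Of 25 tested genes of cholesterol synthesis and uptake, 0 passed the limma threshold and 0 had an unadjusted p under 0.05, and the median was 0.016. Srebf2, the master regulator of that pathway, was at 5279 ± 643 and 4803 ± 531 (-0.13, SE 0.0904). Among 18 genes of fatty acid synthesis and desaturation 0 were called, 1 was higher and 1 lower at an unadjusted p under 0.05, and the median was -0.088. Fasn, the fatty acid synthase gene, was at 7957 ± 1374 and 7422 ± 1426, and Srebf1, its regulator, at 2162 ± 280 and 2068 ± 125. The desaturase gene Scd1 was at 122, 147, 118, 166 and 152 in controls and 91.5, 92.9, 95.2, 115 and 101 in knockouts. Its groups did not overlap, and its fold change of -0.49 (SE 0.133) did not pass (adjusted p = 0.267). Hsd17b12, an elongation enzyme gene, was at 1111 ± 117 and 1347 ± 156 (0.28), Acacb, an acetyl-CoA carboxylase gene, at 68.6 ± 9.56 and 49.4 ± 22.4 (-0.56), and Scd2, the most abundant gene of the list, at 13753 ± 519 and 12717 ± 1541 (-0.12).

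In fatty acid oxidation, which breaks fatty acids down in the mitochondrion, 0 of 24 tested members were called. At an unadjusted p under 0.05, 4 were lower and 0 higher, where 3.62% of all genes were lower. For 3 members every knockout lay below every control, as for 0.793% of all genes. The list median was -0.054, against 0.0087 over all genes, and it was 0.049 with the Trbv1 share as a covariate. Cpt1a, which admits long-chain fatty acids to the mitochondrion and is the step that malonyl-CoA inhibits, was at 3849, 4590, 4216, 4174 and 4565 in controls and 1612, 2470, 3599, 3728 and 1534 in knockouts. Every knockout was lower than every control, but knockouts 3 and 4 came close to control 1 and the others were far below. The fold change was -0.82 (SE 0.221, adjusted p = 0.267). Acadvl, the very long-chain acyl-CoA dehydrogenase gene, was at 2012 ± 104 and 1698 ± 183 (-0.25, SE 0.0758), and Etfb, an electron transfer flavoprotein subunit gene, at 1407 ± 39.9 and 1261 ± 92.8 (-0.16, SE 0.0615). The fourth was the carnitine carrier gene Slc25a20 (-0.27, SE 0.115). Acadvl shares 33.2% of its 31-base words with Dvl2, and Etfb 47.3% with Gm45233.

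Lipid uptake and droplet genes gave no call either. Plin2, which coats lipid droplets, was at 1439, 1285, 1298, 1451 and 1421 in controls and 1050, 1236, 1276, 1238 and 1103 in knockouts, without overlap (-0.23, SE 0.0698, adjusted p = 0.324). The triglyceride lipase gene Pnpla2 was at 312 ± 35.1 and 236 ± 70.2 (-0.44), the lysolipid transporter gene Mfsd2a at 35.2 ± 9.56 and 57.7 ± 22.9 (0.64), and Fabp5, a fatty acid carrier gene, at 1799 ± 118 and 1863 ± 98.4 (0.051). Of 14 tested genes of lipid uptake and droplets, 0 were called and 2 were lower at an unadjusted p under 0.05 (3.62% of all genes). The list median was 0.024, or -0.040 with the Trbv1 share as a covariate.

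Genes of histone acetylation, which draws on the acetyl-CoA that Acly makes, had 0 of 26 called, 1 higher and 3 lower at an unadjusted p under 0.05 (5.13 and 3.62% of all genes), and a median of 0.0062. Hdac4, a class II histone deacetylase gene, was at 1664 to 1880 in controls and 1331 to 1617 in knockouts, without overlap (-0.26, SE 0.0637, adjusted p = 0.241). The deacetylase genes Sirt1 (0.19), Sirt3 (-0.24) and Hdac7, the most abundant (0.049), overlapped between the groups.

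The NOTCH and MYC programs of T-cell leukemia gave no call. Notch1, the receptor gene, was at 78115, 92290, 73658, 99256 and 116814 in controls and 71856, 63170, 70614, 72272 and 83322 in knockouts. The groups overlapped, with control 5 the highest library (-0.33, SE 0.118, adjusted p = 0.407). Its targets did not follow in 1 direction: Hes1 was at 1309 ± 47.5 and 1317 ± 137, Dtx1 at 15255 ± 3041 and 14479 ± 1349, and 8 of 17 tested genes of the list had positive fold changes, with a median of -0.0085. Ptcra, which encodes the alpha subunit of the pre-T-cell receptor, was at 10381 to 13183 in controls and 7722 to 10352 in knockouts, without overlap (-0.32, SE 0.0978, adjusted p = 0.316). Igf1r was the counterpart, at 2332 to 2583 and 2639 to 2975 (0.20, SE 0.0528). Gimap5, a GTPase gene of lymphocyte survival, was at 342 ± 26.0 and 428 ± 68.1 (0.31).

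Myc itself was at 7872 ± 625 and 8327 ± 720 (0.080, SE 0.0724, adjusted p = 0.772, or -0.0028 when scaled to Trbc1 and Trbc2), while in the acute arm its fold change had been -0.54. Endpoint minus acute, it was 0.62 (SE 0.129, adjusted p = 0.00187), and this call was lost when scaled to Trbc1 and Trbc2 (0.16, adjusted p = 0.365). Of 26 tested genes of MYC and ribosome biogenesis 0 were called at the endpoint and 1 was higher at an unadjusted p under 0.05, and the median was 0.078 (-0.0051 when scaled to Trbc1 and Trbc2 and -0.018 without knockouts 1 and 2) against -0.26 in the acute arm. A positive difference between the arms was called for 11 of the 26, where 9.39% of all genes had one. Scaled to Trbc1 and Trbc2, 0 of the 26 had a called positive difference and 1 a negative one, and the median difference turned from 0.36 to -0.10. The nucleolar protein gene Npm1 was at 31423 ± 1823 and 35159 ± 2102 (0.16), Gnl3, which encodes nucleostemin, at 2198 ± 436 and 2566 ± 299 (0.24), and Nolc1 at 4394 ± 670 and 3835 ± 502 (-0.19).

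**Figure D5:**
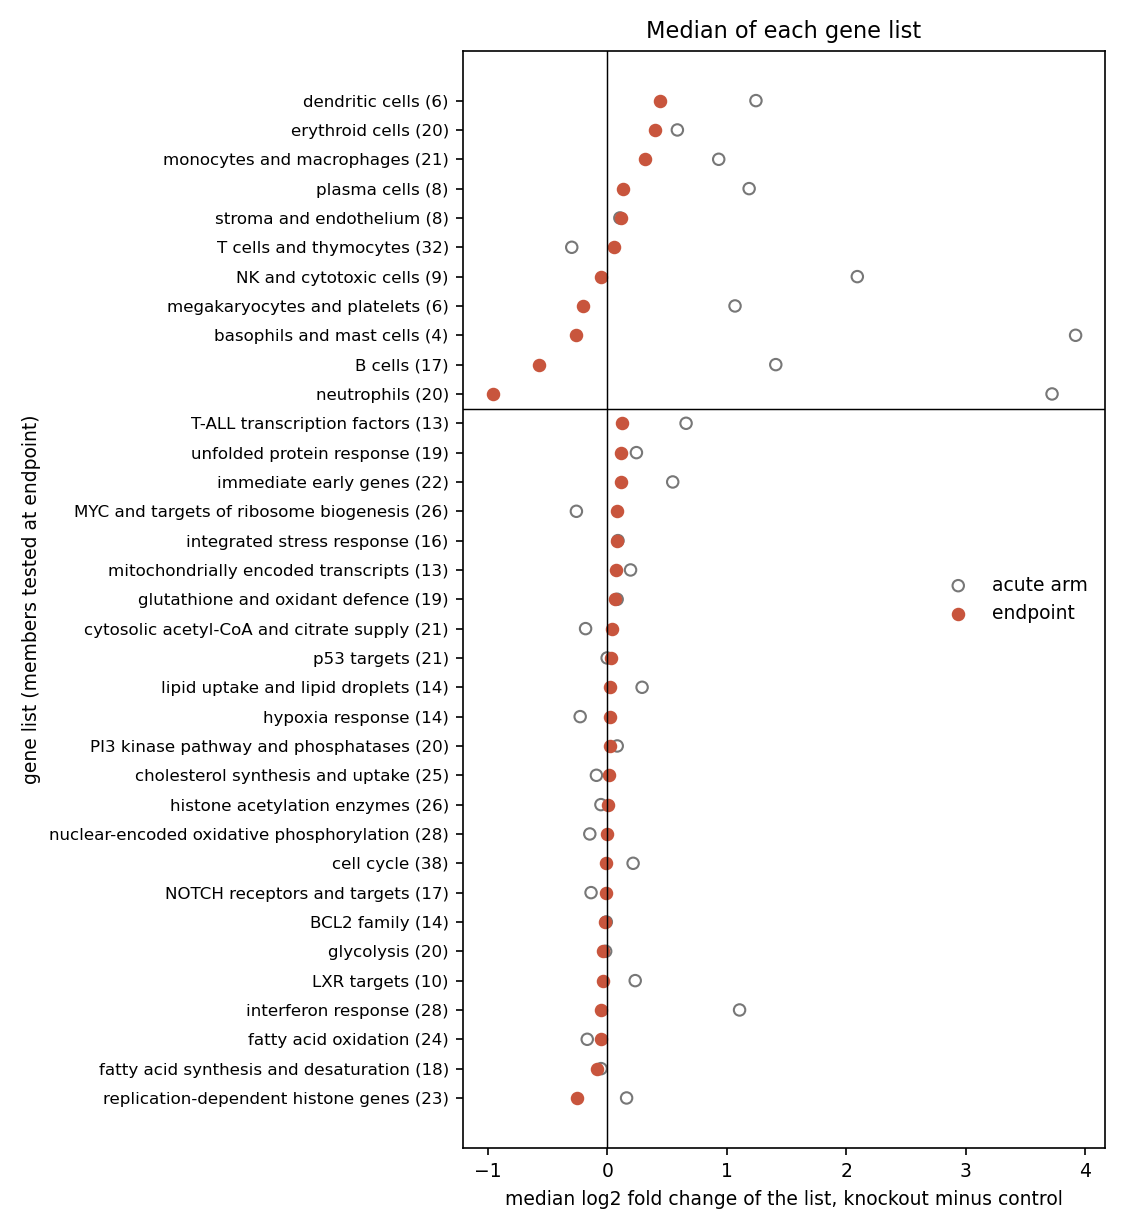
Median log2 fold change (knockout minus control) of each gene list, with the number of members tested at the endpoint in brackets. A list of 5 sex-linked genes is not drawn (median 0.084 at the endpoint and -0.40 in the acute arm, 0 called at the endpoint). Filled points are the endpoint and open points the acute arm, cell type markers are above the line and pathways below it. At the endpoint the medians lie between -0.96 (neutrophils) and 0.44 (dendritic cells), and most pathway medians lie near 0.

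Cell cycle genes other than Ccnd1 gave no further call. Of 38 tested genes 1 was called, and the list median was -0.0068, or 0.071 with the Trbv1 share as a covariate. The CDK inhibitor gene Cdkn2c was at 3166 ± 286 and 2734 ± 284 (-0.21) and the proliferation marker Mki67 at 24816 ± 1595 and 22093 ± 2926 (-0.17, SE 0.0841, adjusted p = 0.592).

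Immediate early genes, which signaling switches on within minutes, had positive fold changes for 16 of 22, where 8482 of all 16136 genes did. The list median was 0.12, or 0.033 when scaled to Trbc1 and Trbc2 and 0.0071 with the Trbv1 share as a covariate. Of these 22 genes 0 were called and 6 were higher and 0 lower at an unadjusted p under 0.05, where 5.13% of all genes were higher. Egr1, a transcription factor induced by MAPK signaling, was at 807, 573, 643, 838 and 842 in controls and 1344, 1954, 852, 1050 and 1445 in knockouts. The groups did not overlap, although knockout 3 lay close to control 5 (0.80, SE 0.19, adjusted p = 0.241). Zfp36, whose protein destabilizes cytokine transcripts, was at 870 ± 105 and 1164 ± 155 (0.42) and Klf2, a regulator of T-cell quiescence and trafficking, at 182 ± 37.3 and 309 ± 91.5 (0.73). Within the phosphoinositide 3-kinase list, Inpp4b, a lipid phosphatase gene, was at 188, 242, 176, 275 and 159 in controls and 314, 351, 372, 346 and 368 in knockouts. These groups did not overlap and the knockouts were even (0.78, SE 0.14, adjusted p = 0.128). Inpp5d, which encodes SHIP1, was at 745 ± 69.6 and 898 ± 145 (0.26), the phosphatase gene Phlpp1 at 627 ± 63.3 and 553 ± 29.0 (-0.18) and the kinase gene Akt1 at 5055 ± 509 and 5276 ± 377 (0.064).

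Among T-lineage genes, 6 of 32 were higher and 0 lower at an unadjusted p under 0.05 (5.13 and 3.62% of all genes), 0 were called, and the median was 0.058 (-0.025 when scaled to Trbc1 and Trbc2). The costimulatory receptor gene Cd28 was at 3789, 3241, 3744, 3520 and 3193 in controls and 4367, 4617, 3927, 4195 and 4488 in knockouts, without overlap (0.31, SE 0.0654, adjusted p = 0.19). Lef1, a transcription factor gene of early T cells, was at 11702 ± 1044 and 13919 ± 1387 (0.25), Trbc2 at 17911 ± 652 and 20342 ± 1816 (0.18) and Tcf7, the most abundant, at 47189 ± 6913 and 50469 ± 1768 (0.11). Of 13 tested T-cell leukemia transcription factors 0 were called, and their median was 0.12, or -0.079 with the Trbv1 share as a covariate and -0.0041 without control 5. At an unadjusted p under 0.05, 3 were higher, where 5.13% of all genes were: Ikzf1, which encodes Ikaros, at 17738 to 19312 and 20208 to 24298 without overlap (0.22, SE 0.0607, adjusted p = 0.267), Myb (0.27, SE 0.079) and Runx3 (0.86, SE 0.312). Runx3 was at 282 and 381 in knockouts 1 and 2 and at 117 to 133 in the other knockouts, close to the controls at 81.0 to 129.

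In the BCL2 family, 0 of 14 genes were called. Pmaip1, which encodes the pro-apoptotic NOXA, was at 225 to 261 in controls and 294 to 325 in knockouts, without overlap (0.36, SE 0.0815, adjusted p = 0.219). Bcl2l1, whose main product BCL-XL is anti-apoptotic, was at 2286 ± 284 and 1837 ± 395 (-0.33), with knockouts 1 and 2 the lowest at 1352 and 1488. Mcl1 was at 6195 ± 421 and 6593 ± 168 (0.092). Of 19 genes of the unfolded protein response, 18 had positive fold changes, where 8482 of all 16136 genes did. At an unadjusted p under 0.05, 3 were higher (5.13% of all genes), and 0 were called (median 0.12, or 0.033 when scaled to Trbc1 and Trbc2).

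Among B-cell transcripts, a pair of antibody segments had the lowest fold changes of those named here. Ighv11-2 and Igkv14-126 encode the heavy and light chain segments of an antibody against phosphatidylcholine that is typical of the B-1a subset of B cells. Their last 200 coding bases are shown for that reason, again from GENCODE M21 transcripts (GRCm38), with capitals from the conserved cysteine codon to the end of the segment. Ighv11-2 lies on the minus strand of chromosome 12 and Igkv14-126 on the plus strand of chromosome 6.
Ighv11-2: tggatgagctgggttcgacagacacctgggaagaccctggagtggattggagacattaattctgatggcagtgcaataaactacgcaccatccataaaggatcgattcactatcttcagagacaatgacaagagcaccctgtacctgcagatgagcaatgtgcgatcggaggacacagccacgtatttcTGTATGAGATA
Igkv14-126: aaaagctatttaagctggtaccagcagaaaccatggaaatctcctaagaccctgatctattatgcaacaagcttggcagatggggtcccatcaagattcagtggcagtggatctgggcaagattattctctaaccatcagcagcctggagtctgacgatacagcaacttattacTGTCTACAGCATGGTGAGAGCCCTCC

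Ighv11-2 was at 110, 124, 164, 41.5 and 156 normalized counts in controls and 34.2, 19.0, 11.96, 17.02 and 23.5 in knockouts. The groups did not overlap, and control 4 was the lowest control. Its log2 fold change was -2.38 (SE 0.364, adjusted p = 0.0617). Igkv14-126 was at 119, 189, 165, 59.2 and 114 in controls and 22.0, 19.8, 13.9, 61.0 and 1.88 in knockouts (-2.87, SE 0.625, adjusted p = 0.208). Control 4 was again the lowest control, and knockout 4 lay just above it. The endpoint minus acute differences were called for both, at -4.41 (adjusted p = 2.12e-05) and -4.84 (adjusted p = 0.000235), with acute fold changes of 2.03 and 1.97. In such bulk samples fewer cells of a type and less RNA per cell cannot be told apart. Of the 31-base words of the Ighv11-2 transcript, 50.6% are shared with Ighv11-1. Knockout 3 differed from all other libraries in another pair: Ighv5-4 was at 827 and Igkv19-93 at 651, against 7.60 to 22.6 and 8.09 to 52.4 in the other 9 libraries.

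Of 17 tested B-cell markers 0 were called, 5 were lower and 0 higher at an unadjusted p under 0.05 (3.62% of all genes were lower), and the median was -0.57. Cd79b, part of the B-cell receptor complex, was at 118, 149, 114, 111 and 106 in controls and 52.8, 74.5, 68.9, 96.7 and 81.6 in knockouts, without overlap (-0.69, SE 0.17, adjusted p = 0.241). Its partner Cd79a (-0.60, SE 0.199) and the transcription factor gene Spib (-0.65, SE 0.218) overlapped. Cd74, the invariant chain and the most abundant of the list, was at 1035 ± 566 and 1082 ± 323 (0.13), and control 4 held the highest value, 2044. The list median was -0.33 without knockouts 1 and 2 and -0.13 among genes with values of 50 or more. In the acute arm the median of these markers was 1.41, and 16 of 17 had a called negative endpoint minus acute difference, where 10.9% of all genes had one. Among plasma cell markers, Irf4 was at 1037 ± 128 and 1514 ± 241 (0.54, SE 0.11, adjusted p = 0.185) and Pou2af1 at 311 ± 99.3 and 642 ± 305 (0.96), with 912 and 1031 in knockouts 1 and 2. Prdm1 (0.60) and Sdc1 (-0.030) overlapped as well, and 0 of 8 markers were called.

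Interferon-induced genes had 0 of 28 called, with 5 lower and 0 higher at an unadjusted p under 0.05 (3.62 and 5.13% of all genes), and their median was -0.053, or 0.019 without knockouts 1 and 2. Bst2, which encodes tetherin, was at 1157, 1110, 1079, 1003 and 1109 in controls and 970, 909, 911, 891 and 881 in knockouts, without overlap (-0.26, SE 0.0586, adjusted p = 0.227). The antiviral gene Oas1a, 68.7% of whose 31-base words are shared with Oas1g, was at 218 ± 48.0 and 128 ± 40.0 (-0.79, SE 0.208), and Rtp4 at 347 ± 93.4 and 238 ± 53.3 (-0.53). In the acute arm the list median was 1.11. The endpoint minus acute difference was called lower for 17 of the 28 genes, where 10.9% of all genes were.

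Markers of NK and cytotoxic cells had 0 of 9 called. Tbx21, which encodes T-bet, was at 29.4 to 49.3 in controls and 10.9 to 25.5 in knockouts, without overlap (-0.89, SE 0.255, adjusted p = 0.298). The chemokine gene Ccl5 was at 67.9 ± 13.6 and 43.7 ± 22.5 (-0.75) and Gzmb at 39.9 ± 26.5 and 26.5 ± 18.3 (-0.70). Gzma, which stood far above the other members, was at 7997 ± 553 and 7914 ± 595 (-0.015).

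Monocyte and macrophage markers had positive fold changes for 17 of 21, where 8482 of all 16136 genes did. Of the 21 markers 0 were called, 8 were higher and 0 lower at an unadjusted p under 0.05 (5.13 and 3.62% of all genes), and the median was 0.31, or 0.13 with the Trbv1 share as a covariate. The leading 3 are genes of resident splenic macrophages. The hemoglobin scavenger receptor gene Cd163 was at 97.2 ± 27.8 and 148 ± 16.6 (0.63, SE 0.177), the adhesion gene Vcam1 at 1007 ± 158 and 1505 ± 401 (0.56, SE 0.156) and the mannose receptor gene Mrc1 at 208 ± 49.8 and 326 ± 90.1 (0.63, SE 0.202). Each overlapped between the groups, and Lyz2, the most abundant marker, had a fold change of -0.56 (SE 0.425). Stromal markers were mixed, with 3 of 8 higher and 1 lower at an unadjusted p under 0.05 (5.13 and 3.62% of all genes). Beside Col1a2, Pdgfrb was at 2450 to 2861 in controls and 2867 to 4568 in knockouts, without overlap (0.45, SE 0.118, adjusted p = 0.261), and the endothelial cadherin gene Cdh5 was at 25.2 ± 12.1 and 9.12 ± 4.39 (-1.34).

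Neutrophil and erythroid transcripts varied widely between libraries of the same group. The summed level of the neutrophil markers was 22464, 30276, 26964, 5901 and 26463 in controls and 34507, 3359, 29498, 8872 and 3201 in knockouts. Control 4 and knockouts 2, 4 and 5 formed the low end, whereas knockouts 1 and 3 were at or above the level of most controls. Of 20 tested neutrophil markers 0 were called and 0 had an unadjusted p under 0.05, and the median was -0.96, with wide errors, or 0.27 with the Trbv1 share as a covariate. The granule genes Prtn3 (-2.01, SE 0.969), Elane (-1.93, SE 1.03) and Ly6g (-0.75, SE 0.396), a surface marker, had the smallest p-values, and Ngp, the most abundant, was at 5737 ± 2686 and 3712 ± 3610. Fold changes were positive for each of the 20 erythroid markers, where 8482 of all 16136 genes had positive ones. The erythroid median was 0.40, or -0.20 with the Trbv1 share as a covariate, and 0 were called. The transferrin receptor gene Tfrc, which proliferating leukemic cells also express, was the only erythroid marker at an unadjusted p under 0.05 (0.40, SE 0.124). Epb42 (0.52, SE 0.292) and Ahsp (0.61, SE 0.383) followed. Hbb-bs, a beta globin gene left after red cell lysis, ranged from 4165 to 36251 among controls and from 12072 to 28612 among knockouts. With the mean of the neutrophil markers as a covariate, limma called Acly (-1.24, adjusted p = 0.000122), and Ccnd1 was 1.28 (adjusted p = 0.0816).

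The difference between the arms was wide. limma called the endpoint minus acute difference for 3173 of 15673 genes tested in both tables, 20.2%, with 1471 higher (9.39%) and 1702 lower (10.9%), and the median of all differences was 0.032. Scaled to Trbc1 and Trbc2, 6992 genes were called, 55 of them higher and 6937 lower, and the median of all differences was -0.43. The arms differ in the time of treatment, the time of collection and the table scaling, and these cannot be told apart. Among called genes with a mean of at least 50 in both tables, the 6 most negative were myeloid genes: Prtn3 (-5.86, SE 1.23), the coagulation factor gene F13a1 (-5.70, SE 0.655), Mpo (-5.41, SE 1.2), Ctsg (-5.40), Elane (-5.31, SE 1.31) and Ltf (-5.19, SE 0.881), which encode proteins of neutrophil granules except F13a1. These 6 had acute fold changes of 3.38 to 4.87 and endpoint fold changes of -2.01 to -0.84, and 0 of the latter passed the threshold. At the endpoint, knockout 1 held the highest level of 5 of the 6 among knockouts and controls, with Mpo at 2178. The 6 most positive were Dsc2, Trbv1, Col1a2, Dsg2, Cpsf4l and Snhg17, at 2.89 to 1.92, whose endpoint values by library are given above. Their acute fold changes were all negative, at -1.15 to -0.36, and those of Dsc2, Dsg2, Cpsf4l and Snhg17 passed the threshold.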

How the data were processed

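RNA of mouse spleens was sequenced as polyA-selected, strand-specific libraries, per the labels' protocols. The values are the authors' deposited normalized counts per gene, treated as a signal unit because they are not raw counts. The authors name kallisto 0.46.0, GRCm39 and DESeq, per the submitters' processing notes. Not given in the sources used here are the annotation and the step from transcripts to genes. Whole reads could not be recovered from the values, so read depth is unknown and no counting interval is given. Genes were named by symbol as deposited.

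Groups were taken from the sample labels. Values were transformed as log2(value + 1), genes with a value of at least 10 in at least 5 survival libraries were kept, and 5 knockouts were compared with 5 controls by a trended empirical Bayes fit in limma 3.58.1 under R 4.3.3. P-values were adjusted by Benjamini-Hochberg over 16136 genes. The difference between arms was a contrast in 1 model over all 20 libraries, on 15673 genes kept in both tables, with no library shared between the arms. The model step was tested on simulated data. Gene lists, 36 in all, were described by counts and medians, with no set test. The members, lists and comparisons were chosen with earlier results of these data known. Genes named were those called, the 12 with the widest gap in each direction without overlap, the 3 with the smallest p and the most abundant member of each list described, the 6 largest differences between arms in each direction, the 3 leading receptor segments per library and 9 fixed genes (Myc, Notch1, Hes1, Dtx1, Acly, Acss2, Fasn, Srebf1 and Srebf2). Some genes that this rule would name are not reported here. Sequences and shared 31-base words came from GENCODE M21 transcripts (GRCm38), and no coordinates are given because the files use another build. A word counted as shared if it occurred in another gene on either strand. Figures were drawn with matplotlib 3.10.9 in Python 3.11.15. Alternatives covered the pseudocount, filters, scaling, the variance model, each library left out and, added after the data were seen, the Trbv1 share and neutrophil markers.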

Additional observations from a re-analysis of the deposited data

Results flagged for a closer look

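In 23 of 242 groups of 5 libraries, 1 library lay far from the other 4. Chance gives about 1 in 20 for independent, normally distributed values. These values were not log transformed and the same libraries recur across genes, so an excess over chance was not tested. Control 4 held 8 of these high values: Trbv1 at 1367 and a Trbv1 share of 15.2%, Dsc2 at 477, Dsg2 at 460, Cpsf4l at 320, Pou2af1 at 486, Cd74 at 2044 and Gzmb at 87.1. In knockout 1, the granule genes Prtn3 (511), Mpo (2178), Ctsg (405) and Elane (753) and the myeloid gene F13a1 (129) stood above the other knockouts, and in knockout 3 the antibody segments Ighv5-4 (827) and Igkv19-93 (651). Control 5 was high for Srebf1 (2656), Bcl7c (974.7) and Akt1 (5961), and control 2 was high for Cd79b (149) and Il5ra (498) and low for Lef1 (9865). Rps6ka2 was low in control 3 (25.5), and Sirt1 was low in knockout 4 (855). Of these genes, Cd79b, Il5ra, Bcl7c and Rps6ka2 are among those whose groups did not overlap.

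Of 120 named genes, 55 had an endpoint fold change that differed from the acute one by limma's adjusted p under 0.05, where 20.2% of all genes did. Of the 120, 12 had been named for the size of this difference, and 43 of the other 108 were called. Many of these were named for their endpoint p or gap, and the endpoint fold change is part of the difference. Their number is therefore not an unselected comparison with all genes. For the cell markers of myeloid cells the endpoint minus acute difference was -5.86 for Prtn3, -5.70 for F13a1, -5.41 for Mpo, -5.40 for Ctsg, -5.31 for Elane, -5.19 for Ltf, -4.90 for Ngp, -4.83 for Ly6g and -4.26 for Lyz2. B-cell genes followed at -4.84 for Igkv14-126, -4.41 for Ighv11-2, -2.17 for Spib, -2.03 for Cd79a, -1.75 for Cd79b and -1.40 for Cd74. Among cytotoxic, interferon and endothelial genes it was -4.04 for Gzmb, -2.41 for Ccl5, -1.93 for Tbx21, -3.05 for Oas1a, -2.47 for Rtp4, -0.63 for Bst2 and -1.55 for Cdh5. Gzma, at 0.38, had the opposite sign to the other cytotoxic genes.

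In lipid and acetyl-CoA metabolism the difference was -0.92 for Acly, -1.22 for Scd1, -0.39 for Plin2, 0.68 for Fabp5 and 0.40 for Pdha1. Other negative values were -0.88 for Inpp5d, -0.77 for Mki67, -0.45 for Prkra, -0.45 for Rab28 and -0.24 for Hdac4. T-lineage and leukemia genes had positive values, at 2.70 for Trbv1, 0.65 for Cd28, 0.56 for Trbc2, 0.54 for Myb, 0.50 for Lef1, 0.41 for Tcf7 and 0.30 for Ikzf1, as did Myc (0.62), Gnl3 (0.55) and Npm1 (0.43). The remaining positive values were 2.89 for Dsc2, 2.42 for Col1a2, 2.09 for Dsg2, 1.97 for Cpsf4l, 1.92 for Snhg17, 1.37 for Esm1, 1.31 for Lzts1, 0.97 for Gm14494, 0.88 for Ccnd1, 0.65 for Rpl36a-ps2, 0.43 for Id3 and 0.33 for Hdac7. Positive values depended on the scaling: of 25 named genes with a called positive difference, 25 were still called with upper quartile scaling and 24 with quantile normalization, but 8 when scaled to Trbc1 and Trbc2, where 7 turned negative without a call. Those still called under that scaling were Trbv1, Dsc2, Col1a2, Dsg2, Cpsf4l, Snhg17, Esm1 and Lzts1. Those that turned were Ikzf1 (-0.16), Hdac7 (-0.13), Gzma (-0.081), Pdha1 (-0.059), Tcf7 (-0.054), Npm1 (-0.030) and Id3 (-0.027). Trbc2 is itself one of the scaling genes. Of 30 named genes with a called negative difference, 28 were still called with upper quartile scaling and 27 with quantile normalization. Prkra and Hdac4 were lost in both, and Cdh5 with quantile normalization. All 30 were called negative when scaled to Trbc1 and Trbc2. That scaling lowered the median of all differences to -0.43, so it could hardly have lost them. The Id3 difference was lost in several settings, among them the fit without control 4 (0.37, adjusted p = 0.0774).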

How the results depend on the processing

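Across 27 settings, the reported one included, limma called Acly in 26 and Ccnd1 in 15. With the Trbv1 share as a covariate Acly was -1.251 (adjusted p = 0.522) and 0 genes were called. Leaving out 1 library moved Acly between -1.483 and -1.261 (largest adjusted p 0.0107), the number of genes called from 2 to between 1 and 22, and the genes without overlap from 324 to between 377 and 578. The number called was 4 with a filter of 50, 4 with robust variances, 11 with array weights, 29 with the spread shared by all 4 groups, 9 without control 4 and knockouts 1 and 2, and 1 when scaled to Trbc1 and Trbc2 or with the neutrophil marker mean as a covariate. Genes without overlap numbered 724 without knockouts 1 and 2 and 1276 without control 4 as well, as fewer libraries make separation easier. The difference between arms was called for 6992 genes when scaled to Trbc1 and Trbc2 (1792 shared with the 3173) and for 2239 to 3585 when 1 library was left out. The causes of these shifts were not tested, other than the number of libraries. Replicate numbers did not pair the libraries: deviations of same-numbered libraries correlated at -0.020 to 0.13, and 0 of 5 knockouts correlated best with their own number. A fit with the replicate block called 2 genes, 1 of them shared (Acly, -1.38, adjusted p = 0.00864), with Ccnd1 at an adjusted p of 0.0525, and called 2363 differences between arms.

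Of the fold changes of named genes across the alternatives, 51 changed sign and 2987 kept their sign and side of the threshold, and the genes that changed sign had not passed it. The cause was not tested. With the Trbv1 share as a covariate these were Acss2 0.09092, Srebf1 0.02783, Gimap5 -0.02732, Inpp5d -0.07161, Runx3 -0.1389, Pou2af1 -0.1014, Ltf 0.2549, Trbv26 0.2715, Trbv2 0.3104, Cpsf4l -0.1297, Cd74 -0.4518, Lyz2 0.1339, Hbb-bs -0.2254, Ngp 0.421, Akt1 -0.005622, Epb42 -0.04839, Hdac7 -0.004022, Sdc1 0.06003, Ly6g 0.07819 and Slc25a20 0.02121. Scaled to Trbc1 and Trbc2 they were Hes1 -0.0795, Myc -0.002781, Fabp5 -0.03205, Akt1 -0.01873 and Hdac7 -0.03435. The Id3 difference between arms, counted apart from the 51, also turned under that scaling, to -0.02673. It had passed the threshold (0.43, adjusted p = 0.0405). Without control 4 and knockouts 1 and 2, Acss2 was 0.006901, Akt1 -0.008506 and Gzmb 0.1193, and without knockouts 1 and 2 alone Acss2 was 0.01336 and Trbv2 0.04142. With the neutrophil marker mean, Cd74 was -0.09211 and Sdc1 0.03679. Hes1 was -0.02149 with quantile normalization, -0.01921 with upper quartile scaling and -0.006586 with array weights, which gave Dtx1 0.02731. With 1 library left out, Hes1 ranged from -0.04196 to 0.05958, Dtx1 from -0.1265 to 0.04227, Srebf1 from -0.0853 to 0.01885, Gzma from -0.05393 to 0.01575, Sdc1 from -0.0839 to 0.05006, Ighv5-4 from -0.4237 to 1.223 and Igkv19-93 from -0.7119 to 0.8295. Of 36 list medians, 10 turned sign with the Trbv1 share as a covariate. Of these, 4 had been at least 0.1 in size: neutrophils (-0.96 to 0.27), erythroid cells (0.40 to -0.20), dendritic cells (0.44 to -0.027) and T-cell leukemia transcription factors (0.12 to -0.079). Scaling to Trbc1 and Trbc2 turned 12, 0 of that size, and a filter of 50 turned 2, basophils and mast cells (-0.26 to 0.035) and lipid uptake (0.024 to -0.0033).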

Other observations

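A pair of processed pseudogenes, chosen after their values were seen, split libraries of the same group. Gm10443 was listed at 0 in controls 1, 2 and 3, at 991 and 1026 in controls 4 and 5 and at 687 to 1236 in knockouts. Rpl10a-ps1 was at 1615 to 2772 in controls 1 to 4, at 2.87 in control 5 and at 3000 to 4234 in knockouts. All 31-base words of Gm10443 occur in Rps28 and all those of Rpl10a-ps1 in Rpl10a (100% each, GENCODE M21), so these levels depend on how reads were shared between a parent gene and its copy. Neither gene was called by limma (adjusted p = 0.346 and 0.642).

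Of the lists not described above, the replication-dependent histone genes had positive fold changes for 3 of 23, where 8482 of all 16136 genes did, with 0 called. Their median was -0.25, or -0.089 with a filter of 50. Their summed level overlapped between the groups, at 3007 to 4376 in controls and 3224 to 3880 in knockouts. The 13 transcripts of the mitochondrial genome all had positive fold changes (median 0.075, or -0.0081 when scaled to Trbc1 and Trbc2) and 0 were called, while 28 nuclear genes of oxidative phosphorylation had a median of -0.0031. Glutathione and oxidant defense genes had 4 of 19 higher and 0 lower at an unadjusted p under 0.05 (5.13 and 3.62% of all genes), and their median was 0.069 (-0.014 when scaled to Trbc1 and Trbc2). Glycolysis (20 genes, median -0.033), p53 targets (21 genes, 0.032), hypoxia response (14 genes, 0.020), the integrated stress response (16 genes, 0.078) and LXR targets (10 genes, -0.036) held 0 called genes. The 6 markers of dendritic cells had a median of 0.44, the 6 of megakaryocytes -0.20 and the 4 of basophils and mast cells -0.26, with 0 called. These small lists moved with the settings: with a filter of 50 the medians were 0.092, -0.081 and 0.035. The dendritic median was -0.027 with the Trbv1 share as a covariate, and that of basophils and mast cells was -0.94 without knockouts 1 and 2, 0.014 without knockout 4, 0.036 without knockout 5 and 0.25 with the neutrophil marker mean as a covariate. The megakaryocyte median was 0.0013 without control 2 and 0.024 without knockout 5.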
